A study of Mus musculus with 13 samples.

Results

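The 41 DNA replication genes described here are a named set: the helicase subunits, loaders, polymerases, clamp loaders, nucleotide enzymes, S phase regulators and chromatin factors that a cell uses to copy its genome. They were picked by gene symbol, and all 41 were found among the 27141 genes of the count and FPKM tables. All 41 also passed the filter on low counts, which kept 19884 genes and lets a gene pass through the group where it is high.

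The libraries came from damaged hepatocytes (dHeps) isolated by collagenase perfusion after repeated liver injury of mice with carbon tetrachloride (CCl4). The mice were labelled WT, and the injury model was on a C57BL/6 background. All cells were kept for 16 days in serum-free Hepatocyte Maintenance Medium (Lonza), and all groups share the isolation, the injury and this medium. The 7 groups were the solvent DMSO, the cocktail of 5 compounds (5C), and 5C with a single compound left out. 5C-G lacked GSK429286A, a kinase inhibitor. 5C-C lacked CID755673, an inhibitor of protein kinase D. 5C-E lacked ETC-1002, an activator of the kinase AMPK, and 5C-F lacked forskolin, which activates adenylate cyclase. 5C-S lacked Salidroside, a glycoside from Rhodiola. There were 2 libraries per group, called A and B, and 1 library of 5C-S, which therefore enters no test. The study's methods describe its replicates as biologically separate, and the labels do not say whether the libraries of a group came from different mice or from cultures of the same mice, so p-values measure the spread between these libraries. Total counts ran from 30195867 to 45491932 per library.

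DNA replication is licensed in G1 phase, when the origin recognition complex, Cdc6 and Cdt1 load rings of the Mcm helicase onto DNA. In S phase, Cdc45 and the Gins complex turn the ring into an active helicase, primase and the polymerases follow, and a clamp of Pcna, placed by the Rfc loader, holds the polymerases on the template. Most hepatocytes of the adult liver are quiescent, and genes of this set are transcribed mainly in cells that enter the cycle, many of them under E2F transcription factors.

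Many replication genes were higher in 5C-C than in 5C. Of the 41 members, 22 were higher, 1 was lower and 18 did not pass the test (edgeR, Benjamini-Hochberg adjusted p below 0.05 and a log2 fold change beyond 1, which is a 2-fold difference). That is 53.7% of the members called higher, beside 9.65% of all genes tested, and 10.5% of all genes were called lower. The median log2 fold change of the members was 1.13, with quartiles of 0.79 and 1.74, and that of all genes tested was 0.00. Without the fold threshold, 29 members passed in either direction, beside 35.8% of all genes tested. The raised genes came from every role, and the largest differences were in thymidine kinase *Tk1*, the exonuclease *Exo1*, the Gins subunit *Gins2*, the ribonucleotide reductase subunit *Rrm2* and the helicase subunit *Mcm5*.

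**Figure D1:**
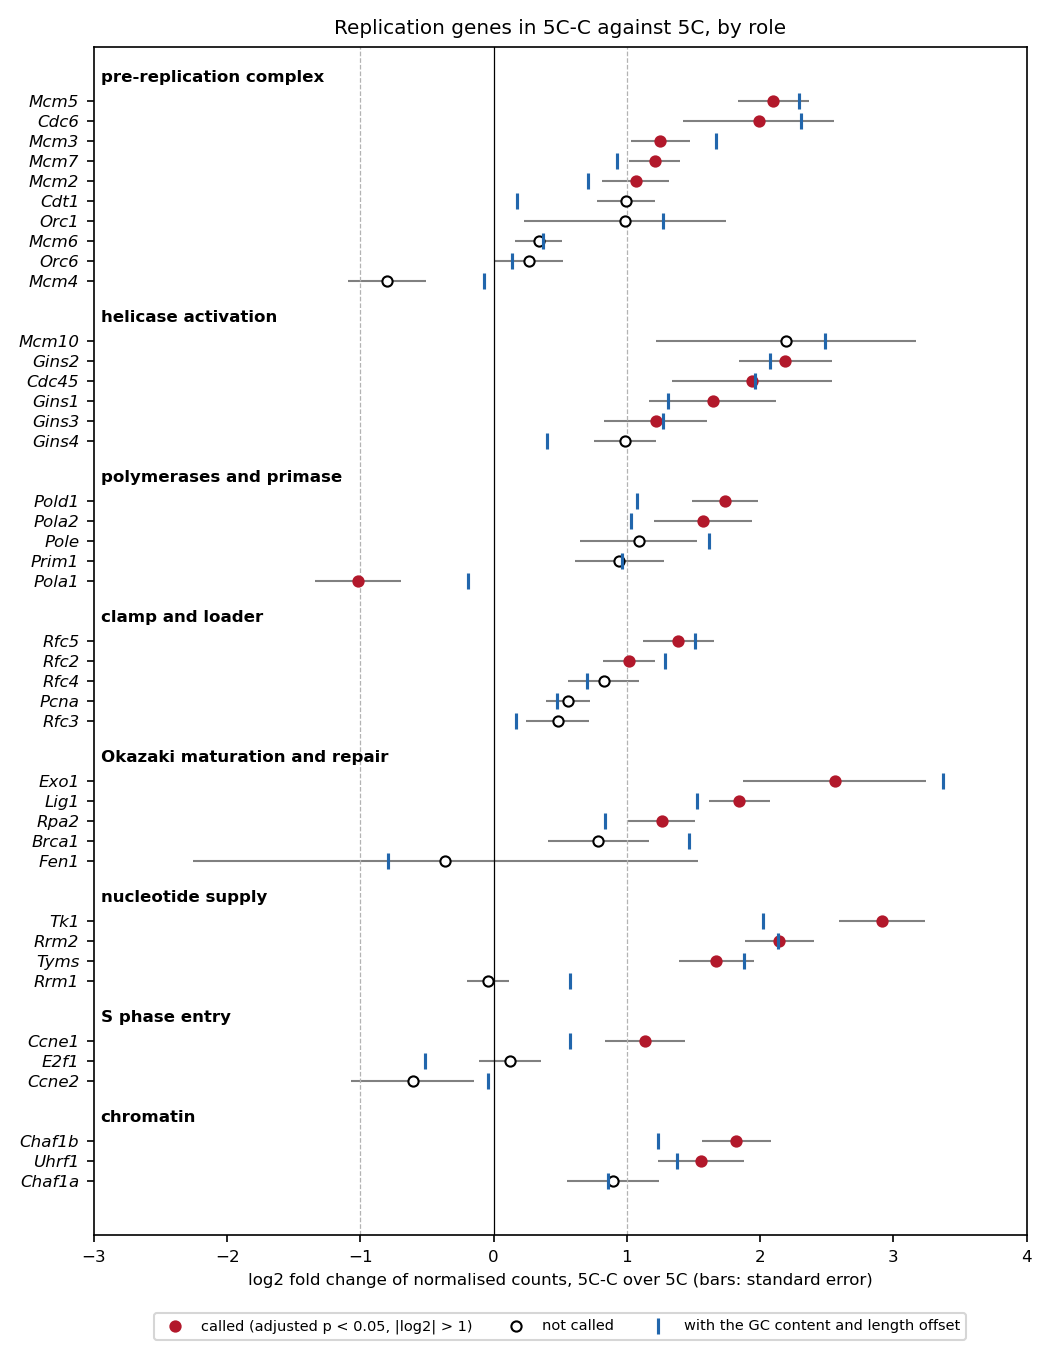
Log2 fold change of each of the 41 members in 5C-C against 5C (x axis; bars, standard error), grouped by role on the y axis. Filled points were called, open points were not, and blue ticks give the value when the fit also allows for GC content and transcript length. 36 of the 41 values are positive, and *Pola1* is the called gene on the negative side.

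In 22 members both 5C-C libraries lay above all 11 other libraries in FPKM (fragments scaled to transcript length and library size), which was so for 6.14% of all genes tested. These are not the same genes as the 22 called higher. *Mcm10*, *Cdt1*, *Gins4*, *Rfc4*, *Prim1* and *Pole* were separated in this way but not called. *Mcm2*, *Cdc45*, *Gins1*, *Pola2*, *Uhrf1* and *Exo1* were called but not separated. In 28 members 5C-C had the highest group mean, which was so for 19.2% of all genes tested. The set was mostly expressed at a low level. Its mean FPKM over all libraries ranged from 0.0620 to 21.6 with a median of 2.57, and 11 members lay below 1 FPKM.

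Few members were called when another compound was removed. In 5C-G against 5C, 3 members were called higher (*Tk1*, *Gins2* and *Mcm5*), which is 7.32% of the members beside 7.47% of all genes tested. In 5C-F against 5C there were 3 (*Gins1*, *Tk1* and *Pold1*), again 7.32%, beside 2.69% of all genes. In 5C-E against 5C the called member was *Rrm2*, 2.44% of the set beside 0.654% of all genes. In 5C against DMSO it was the primase subunit *Prim1*, again 2.44%, beside 1.66% of all genes. The edgeR test called 0 members lower in any of these 4 comparisons, where the background for lower calls was 5.64%, 2.15%, 1.31% and 2.89% in the same order. At an unadjusted p under 0.05, edgeR placed 12, 12, 9 and 2 members on the higher side and 2, 2, 0 and 2 on the lower side, and DESeq2 called 0 lower in each. At that p the shares of all genes were 19.2%, 13.2%, 7.71% and 7.72% higher and 17.6%, 12.8%, 6.83% and 9.46% lower. At an adjusted p below 0.05 (edgeR) with no fold threshold, 8, 7, 1 and 1 members passed, beside 25.6%, 10.7%, 2.94% and 6.34% of all genes. The log2 fold change was positive in 31, 32, 33 and 20 of the 41. The median log2 fold change of the members was 0.35 in 5C-G, 0.42 in 5C-F, 0.37 in 5C-E and -0.09 in 5C against DMSO. These counts were sensitive to single libraries. The 3 in 5C-G became 6 without 5C-G A (3 of them lower), 1 without 5C-G B, 1 without 5C A and 0 without 5C B. The 3 in 5C-F became 0 without 5C A or 5C B, and the 1 in 5C-E became 2 without 5C-E A and 0 without 5C-E B or 5C B. The 4 removal comparisons share the 5C libraries.

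**Figure D2:**
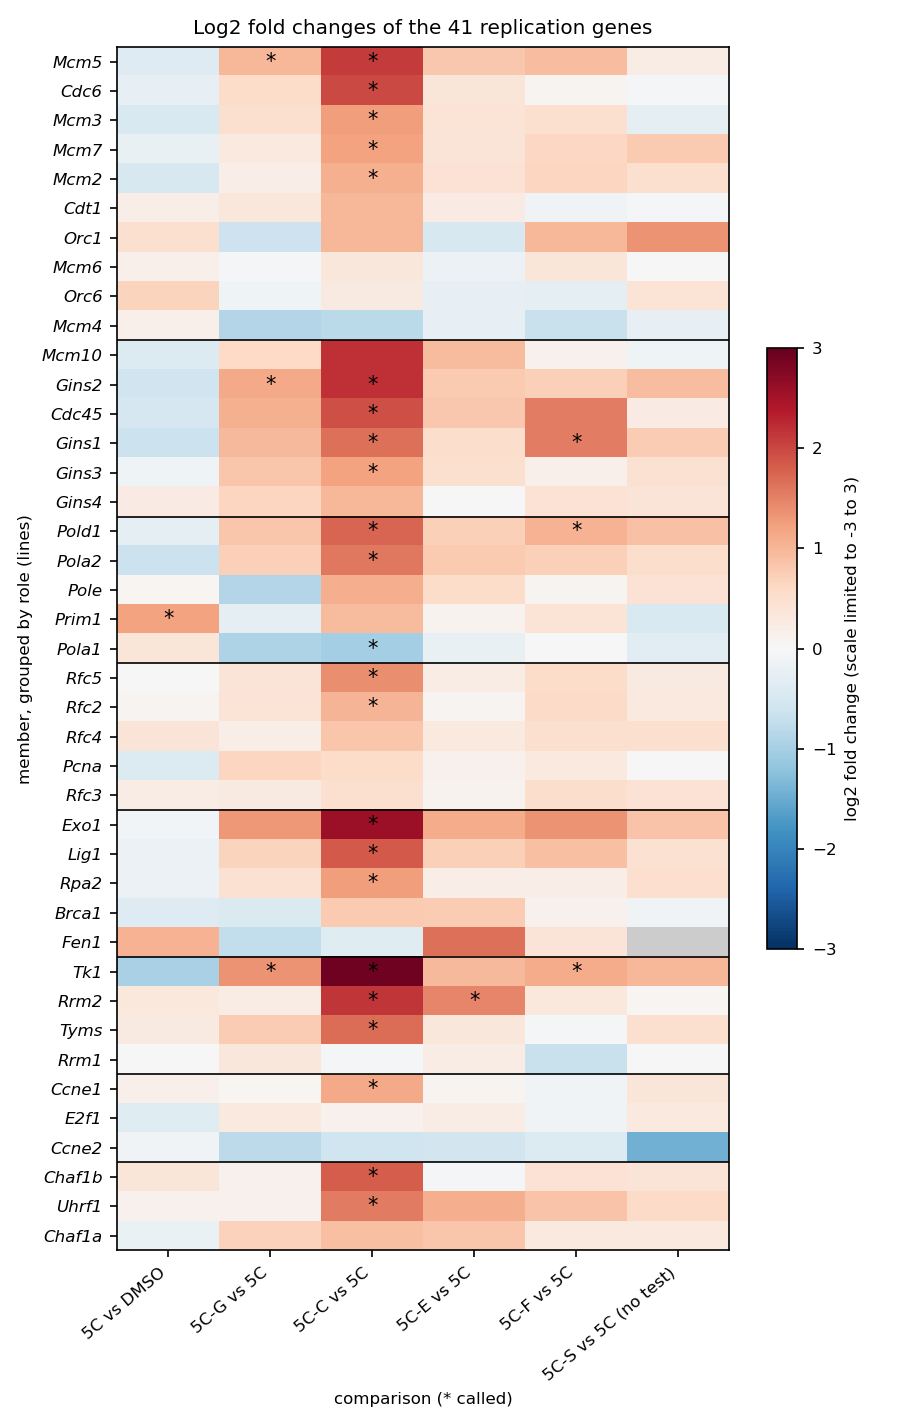
Log2 fold changes of the 41 members (rows, grouped by role) in 5 tested comparisons and in 5C-S against 5C, which has 1 library and no test. Colour gives the log2 fold change from -3 to 3, asterisks mark called genes, and the cell of *Fen1* in 5C-S, with 0 counts, is grey. The 5C-C column holds 23 asterisks, and the other tested columns hold 1 or 3.

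In direct contrasts with the other 3 tested removals, the called members were mostly higher in 5C-C. Against 5C-C, 9 members were called in 5C-G, all of them lower (background for lower calls 3.21%). Compared with 5C-E, 12 members were higher in 5C-C (background 6.33%), and compared with 5C-F, 10 were higher (background 4.92%) and 1, *Pola1*, was lower. *Tk1*, *Mcm5*, *Chaf1b*, *Lig1* and *Ccne1* were among the members called against 5C-G as well as against 5C-E, and all of these but *Lig1* were called against 5C-F too. With total counts as the only scaling, the 12 against 5C-E became 6. 5C-G and 5C-E differed in 3 members (background in either direction 9.31%), of which *Rrm2* was lower in 5C-G by 1.25 on the log2 scale. 5C-G and 5C-F differed in *Rrm1* (background 8.03%), and 5C-E and 5C-F in *Rrm2* (background 8.74%).

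Against DMSO, 5C-C again had the most calls. In 5C-C 20 members were called, all of them higher, with a background of 10.4% for higher calls and a member median of 1.14. In 5C-E 3 were higher, *Rrm2*, *Prim1* and *Uhrf1* (background 2.41%), with 1 called without DMSO A, DMSO B or 5C-E B. In 5C-G it was *Tyms* (background 3.11%), with 6 called without 5C-G A and 0 without DMSO A, DMSO B or 5C-G B. In 5C-F it was *Prim1* (background 3.18%), with 3 called without 5C-F B and 0 without DMSO A or DMSO B. *Prim1* was called higher than in DMSO in 5C, 5C-C, 5C-E and 5C-F. These comparisons share the DMSO libraries.

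The hexameric Mcm2 to Mcm7 helicase and its loaders make up the pre-replication complex, and 5 of its 10 members were called higher in 5C-C, with a median log2 fold change of 1.03. *Mcm5* (chr8:75836140-75856231, plus strand), a helicase subunit, had 5.34 and 6.998 FPKM in 5C-C, 1.67 and 1.57 in 5C, 1.99 and 2.05 in DMSO, 2.61 and 3.26 in 5C-G, 2.54 and 3.42 in 5C-E, 2.95 and 2.77 in 5C-F and 1.92 in 5C-S. Both 5C-C libraries were well above the other 11, and the difference from 5C was 2.10 ± 0.27 (SE, adjusted p = 4.3e-05, edgeR). *Mcm5* was also called in 5C-G, at 1.01 ± 0.26 (SE, adjusted p = 0.0094, edgeR), a call lost with DESeq2, with total counts as the only scaling, with no filter, with limma and without 5C A, 5C B or 5C-G B. *Mcm2* (chr6:88860452-88875762, minus strand), another subunit of the ring, had 2.32 and 3.21 FPKM in 5C-C, 1.42 and 1.55 in 5C, 2.09 and 1.84 in DMSO, 1.56 and 1.54 in 5C-G, 1.70 and 2.52 in 5C-E, 2.08 and 2.27 in 5C-F and 2.09 in 5C-S. Its 5C-C libraries were the highest in group mean, but 5C-E B lay between them, and the log2 fold change was 1.07 ± 0.25 (SE, adjusted p = 0.0035, edgeR). *Mcm3* and *Mcm7* were also called, at 1.25 and 1.21. *Mcm6* and *Mcm4* broke the pattern. *Mcm6* was 0.34 ± 0.18 (SE, adjusted p = 0.15, edgeR), which did not pass. *Mcm4* had 5.30 and 4.38 FPKM in 5C-C, 9.05 and 9.77 in 5C, 8.38 and 7.75 in DMSO, 7.03 and 2.52 in 5C-G, 7.79 and 8.99 in 5C-E, 5.20 and 5.85 in 5C-F and 8.03 in 5C-S. The 5C-C libraries were below those of 5C by 0.80 on the log2 scale (SE 0.29, adjusted p = 0.040), short of the fold threshold, and the 5C-G libraries differed from each other.

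Among the loaders, *Cdc6* and *Orc1* were lower in FPKM than the helicase subunits. *Cdc6* (chr11:98798507-98814766, plus strand), an ATPase that brings the helicase to origins, had 0.613 and 0.776 FPKM in 5C-C, 0.194 and 0.199 in 5C, 0.199 and 0.245 in DMSO, 0.380 and 0.157 in 5C-G, 0.242 and 0.293 in 5C-E, 0.257 and 0.127 in 5C-F and 0.191 in 5C-S. These values rest on 97 and 185 counts in 5C-C against 34 and 32 in 5C, and the log2 fold change was 1.99 ± 0.57 (SE, adjusted p = 0.011, edgeR). *Cdt1* (chr8:123294703-123300293, plus strand), its partner in loading, had 8.87 and 8.71 FPKM in 5C-C, 4.73 and 5.17 in 5C, 4.36 and 3.87 in DMSO, 5.15 and 6.17 in 5C-G, 5.63 and 6.77 in 5C-E, 4.11 and 4.47 in 5C-F and 4.81 in 5C-S. The 5C-C libraries lay close together and above all others, at 0.99 ± 0.22 (SE, adjusted p = 0.0020, edgeR), just short of the fold threshold, so *Cdt1* was not called. DESeq2, the fit with no filter and the fit of only both groups did call it. With an allowance for GC content and transcript length together, below called the allowance for GC content, its value was 0.17. *Orc1* (chr4:108436540-108473245, plus strand), the ATPase subunit of the origin recognition complex, had 0.437 and 0.202 FPKM in 5C-C, 0.197 and 0.159 in 5C, 0.149 and 0.0922 in DMSO, 0.134 and 0.0787 in 5C-G, 0.142 and 0.123 in 5C-E, 0.297 and 0.369 in 5C-F and 0.463 in 5C-S. It was counted 10 to 55 times per library. Both 5C-C libraries were above 5C, B by a small margin, while 5C-F and 5C-S reached the same levels, and the difference of 0.99 ± 0.76 (SE, adjusted p = 0.34, edgeR) did not pass. *Orc6*, the smallest subunit, was at 0.26 and did not pass either.

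Promoter sequence was examined because E2F factors are known regulators of this set. The 250 bases before the start of the canonical transcript (GENCODE, GRCm39) were searched on both strands for the octamers TTTCCCGC, TTTCGCGC and TTTGGCGC, counting overlapping matches. A match was present in 4 of the 41 members (9.76%), *Mcm4*, *Mcm5*, *Mcm6* and *Pola1*, and in 383 of 17390 protein-coding promoters (2.20%). With the first T dropped from each octamer the counts were 10 of 41 (24.4%) and 1576 of 17390 (9.06%). Of the 22 members higher in 5C-C, 1 had an octamer, *Mcm5*, and the 3 others with a match were not higher. With the first T dropped, 5 of these 22 (22.7%) and 5 of the 19 other members (26.3%) had a match. A match describes letters only, not a bound site. The promoters of *Mcm5*, *Mcm6* and *Pola1* are printed 5′ to 3′ along the gene, without transcribed bases, to set a gene that was higher beside a gene that did not pass and a gene that was lower. Capitals mark the octamers. A further *Mcm6* octamer, TTTGGCGC, lies 37 to 30 bases before the canonical start, in the stretch left out as transcribed. The positions are *Mcm5* at chr8:75835980-75836139 (plus strand, 160 bases), *Mcm6* at chr1:128287517-128287612 (minus strand, 96 bases) and *Pola1* at chrX:92675814-92675973 (minus strand, 160 bases).
Mcm5: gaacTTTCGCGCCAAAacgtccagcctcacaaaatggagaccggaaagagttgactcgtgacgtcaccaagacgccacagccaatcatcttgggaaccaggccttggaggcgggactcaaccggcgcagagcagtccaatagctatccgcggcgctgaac
Mcm6: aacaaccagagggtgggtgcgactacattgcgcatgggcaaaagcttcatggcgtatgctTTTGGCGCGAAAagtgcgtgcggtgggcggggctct
Pola1: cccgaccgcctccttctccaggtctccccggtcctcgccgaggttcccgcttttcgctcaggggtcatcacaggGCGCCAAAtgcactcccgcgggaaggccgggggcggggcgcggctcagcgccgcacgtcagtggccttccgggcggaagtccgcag

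Of the 6 factors that activate the loaded helicase, 4 were called higher in 5C-C, and the median was 1.79. *Gins2* (chr8:121305372-121316043, minus strand), a subunit of the Gins complex, had 3.40 and 4.83 FPKM in 5C-C, 1.04 and 0.993 in 5C, 1.49 and 1.43 in DMSO, 1.89 and 2.19 in 5C-G, 1.44 and 2.26 in 5C-E, 1.01 and 2.12 in 5C-F and 1.94 in 5C-S. Both 5C-C libraries were above all others, and the log2 fold change was 2.19 ± 0.35 (SE, adjusted p = 0.00021, edgeR). In 5C-G it was 1.15 ± 0.34 (SE, adjusted p = 0.021, edgeR), a call lost with limma and without 5C A, 5C B or 5C-G B. *Cdc45* (chr16:18599195-18631551, minus strand), which joins Mcm and Gins in the active helicase, had 0.679 and 2.06 FPKM in 5C-C, 0.561 and 0.251 in 5C, 0.826 and 0.265 in DMSO, 1.002 and 0.578 in 5C-G, 0.634 and 0.865 in 5C-E, 1.09 and 1.09 in 5C-F and 0.485 in 5C-S. The 5C-C libraries differed from each other, with A inside the range of the other groups, and the log2 fold change was 1.94 ± 0.60 (SE, adjusted p = 0.017, edgeR). *Gins1* and *Gins3* were called at 1.64 and 1.22. *Gins1* was also called in 5C-F, at 1.54 ± 0.48 (SE, adjusted p = 0.047, edgeR), a call lost with the allowance for GC content, at 1.31 with an adjusted p of 0.072 (edgeR). *Gins4* stood just short of the fold threshold at 0.99. It was called with DESeq2 and without 5C B or 5C-C A, and with the allowance for GC content it was 0.40. *Mcm10*, which stimulates helicase activation, was at 2.19 ± 0.98 (SE, adjusted p = 0.092, edgeR). It had 102 and 132 counts in 5C-C, 25 and 24 in 5C, and 0 and 67 in 5C-F, and did not pass. The fit with no filter and the fit of only both groups did call *Mcm10*.

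Among the polymerases and primase, 2 of 5 members were called higher and 1 lower in 5C-C. *Pold1* (chr7:44182168-44198349, minus strand), the catalytic subunit of polymerase delta on the lagging strand, had 4.65 and 5.57 FPKM in 5C-C, 1.80 and 1.64 in 5C, 2.13 and 1.89 in DMSO, 2.87 and 2.71 in 5C-G, 2.33 and 3.64 in 5C-E, 3.35 and 3.30 in 5C-F and 3.19 in 5C-S. The 5C-C libraries were the highest, with a log2 fold change of 1.74 ± 0.25 (SE, adjusted p = 9.5e-05, edgeR), and 5C-F was also above 5C, at 1.05 ± 0.25 (SE, adjusted p = 0.014, edgeR), which was 0.82 and not called with the allowance for GC content. *Pola1* (chrX:92348365-92675813, minus strand), the catalytic subunit of polymerase alpha, moved the other way. It had 0.664 and 0.436 FPKM in 5C-C, 1.26 and 1.22 in 5C, 1.02 and 0.797 in DMSO, 0.818 and 0.391 in 5C-G, 1.21 and 1.03 in 5C-E, 1.27 and 1.01 in 5C-F and 1.001 in 5C-S. The 5C-C libraries and 5C-G B were the lowest, and *Pola1* fell by 1.02 in 5C-C (SE 0.32, adjusted p = 0.020, edgeR). Its partner subunit *Pola2* was higher, at 1.57 ± 0.37 (SE, adjusted p = 0.0031, edgeR). The call of *Pola1* was lost with the allowance for GC content, where the value was -0.19, with DESeq2, with limma and without 5C A, 5C B or 5C-C B. *Pole*, the catalytic subunit of polymerase epsilon, was at 1.09 ± 0.44 (SE, adjusted p = 0.063, edgeR) and did not pass. A call of *Pole* came with DESeq2, with no filter, with only both groups fitted and with the allowance for GC content. *Prim1* (chr10:127851031-127867682, plus strand) was the member called in 5C against DMSO, at 1.20 ± 0.34 (SE, adjusted p = 0.046, edgeR). It had 2.55 and 1.87 FPKM in 5C-C, 1.42 and 1.15 in 5C, 0.537 and 0.522 in DMSO, 0.739 and 1.17 in 5C-G, 1.43 and 1.46 in 5C-E, 1.55 and 1.65 in 5C-F and 0.939 in 5C-S. Both DMSO libraries were the lowest of all, and the call was lost with limma, with the allowance for GC content and when any single library of DMSO or 5C was left out.

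Of the clamp and its loader, 2 of 5 members were called higher in 5C-C. *Pcna* (chr2:132091082-132095234, minus strand), the sliding clamp, had 23.5 and 23.8 FPKM in 5C-C, 16.8 and 19.3 in 5C, 22.6 and 22.98 in DMSO, 27.6 and 23.8 in 5C-G, 20.3 and 20.8 in 5C-E, 20.7 and 20.8 in 5C-F and 18.2 in 5C-S. It was the member with the highest mean level, its range over the 13 libraries was narrow, and its log2 fold changes of 0.56 ± 0.17 (SE, adjusted p = 0.014, edgeR) in 5C-C and 0.64 ± 0.17 (SE, adjusted p = 0.0093, edgeR) in 5C-G passed the adjusted p but not the fold threshold. *Rfc5* (chr5:117515030-117527162, minus strand), a loader subunit, had 5.42 and 5.43 FPKM in 5C-C, 2.05 and 2.60 in 5C, 2.11 and 2.29 in DMSO, 2.09 and 3.41 in 5C-G, 2.72 and 2.97 in 5C-E, 3.08 and 3.29 in 5C-F and 2.86 in 5C-S. The 5C-C libraries were nearly equal and above all others, at 1.39 ± 0.27 (SE, adjusted p = 0.00078, edgeR). *Rfc2* was called at 1.02, while *Rfc4* at 0.83 and *Rfc3* at 0.48 were not.

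Of the 5 genes for strand maturation and repair, 3 were called higher in 5C-C. *Exo1* (chr1:175708143-175741055, plus strand), a nuclease of mismatch repair and strand resection, had 0.220 and 0.568 FPKM in 5C-C, 0.0814 and 0.0696 in 5C, 0.0876 and 0.0648 in DMSO, 0.0996 and 0.231 in 5C-G, 0.0913 and 0.255 in 5C-E, 0.172 and 0.186 in 5C-F and 0.139 in 5C-S. Its log2 fold change was 2.56 ± 0.69 (SE, adjusted p = 0.0077, edgeR), on 56 and 218 counts in 5C-C against 23 and 18 in 5C, and 5C-C A did not exceed 5C-G B or 5C-E B. *Lig1*, the ligase that joins Okazaki fragments, was at 1.84 ± 0.23 (SE, adjusted p = 3.8e-05, edgeR), and *Rpa2*, a subunit of the single-strand binding complex, at 1.26 ± 0.25 (SE, adjusted p = 0.00096, edgeR). *Brca1*, a repair factor, was at 0.79 and did not pass. *Fen1*, the flap nuclease, had 0 to 16 counts in every library, and no direction is read from it. Exons of genes on the other strand cover 79.4% of its canonical exon bases. How the counting treated reads from overlapping genes is not given in the sources used here, and the part of the overlap in the *Fen1* level was not tested.

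Enzymes that supply nucleotides held the largest single difference, that of *Tk1*, with 3 of 4 called in 5C-C and a median of 1.91. *Tk1* (chr11:117702770-117717042, minus strand), thymidine kinase of the salvage route, had 4.62 and 9.52 FPKM in 5C-C, 1.13 and 0.983 in 5C, 2.02 and 1.93 in DMSO, 2.42 and 2.50 in 5C-G, 1.94 and 2.42 in 5C-E, 1.72 and 2.58 in 5C-F and 2.15 in 5C-S. The 5C libraries were the lowest and the 5C-C libraries the highest of all, although B was higher than A by a wide margin. The log2 fold change was 2.92 ± 0.32 (SE, adjusted p = 1.4e-05, edgeR). *Tk1* was also called in 5C-G, at 1.36 ± 0.31 (SE, adjusted p = 0.0044, edgeR), and in 5C-F, at 1.11 ± 0.31 (SE, adjusted p = 0.031, edgeR). With the allowance for GC content both calls were lost, at 0.72 in 5C-G and 0.67 in 5C-F. In 5C against DMSO it was at -0.97 ± 0.31 (SE, adjusted p = 0.080, edgeR), which did not pass. *Rrm2* (chr12:24757811-24764145, plus strand), the regulated subunit of ribonucleotide reductase, had 29.2 and 25.8 FPKM in 5C-C, 8.22 and 5.72 in 5C, 6.47 and 4.21 in DMSO, 8.31 and 6.56 in 5C-G, 15.3 and 25.1 in 5C-E, 8.30 and 7.99 in 5C-F and 7.39 in 5C-S. Only 5C-C and 5C-E exceeded 10 FPKM, with log2 fold changes of 2.14 ± 0.26 (SE, adjusted p = 3.1e-05, edgeR) and 1.47 ± 0.26 (SE, adjusted p = 0.0030, edgeR). *Tyms*, thymidylate synthase, was at 1.67 ± 0.28 (SE, adjusted p = 0.00029, edgeR). *Rrm1*, the large reductase subunit, did not follow *Rrm2*. It had 12.2 and 11.03 FPKM in 5C-C, 13.1 and 13.7 in 5C, 13.02 and 12.04 in DMSO, 16.6 and 14.4 in 5C-G, 17.6 and 15.3 in 5C-E, 8.23 and 7.55 in 5C-F and 13.5 in 5C-S. In 5C-C it was at -0.04 ± 0.16 (SE, adjusted p = 0.87, edgeR), and the 5C-F libraries were the lowest, below 5C by 0.66 on the log2 scale (SE 0.16, adjusted p = 0.017), short of the fold threshold. *Rrm1* in 5C-F was at -0.39 with the allowance for GC content (adjusted p = 0.069, edgeR).

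**Figure D3:**
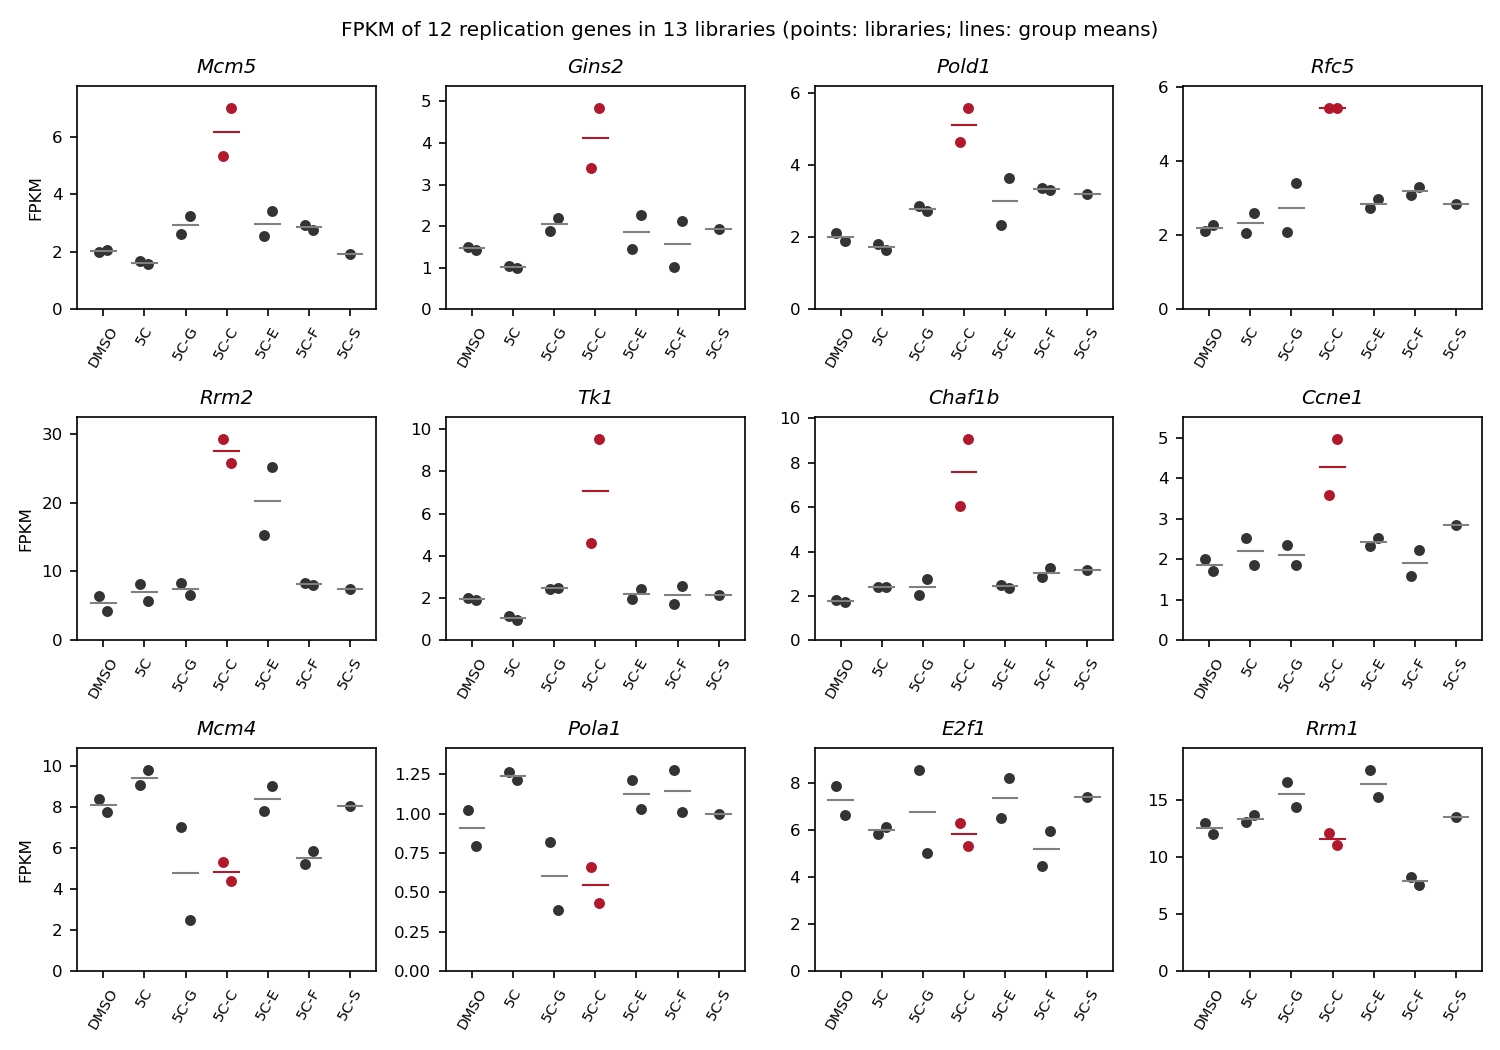
FPKM of 12 members in the 13 libraries (points) with group means (lines), each y axis starting at 0, and 5C-C in red. In the upper 8 panels both 5C-C libraries lie above all others, and in the panels of *Mcm4*, *Pola1*, *E2f1* and *Rrm1* they do not.

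The regulators of S phase entry did not move as a group. *Ccne1* (chr7:37797404-37808264, minus strand), cyclin E1, the partner of Cdk2 at the start of S phase, had 3.58 and 4.96 FPKM in 5C-C, 2.53 and 1.86 in 5C, 2.01 and 1.71 in DMSO, 2.35 and 1.86 in 5C-G, 2.32 and 2.52 in 5C-E, 1.58 and 2.23 in 5C-F and 2.85 in 5C-S. It was the called member of its role, at 1.13 ± 0.30 (SE, adjusted p = 0.0071, edgeR). *Ccne2* (chr4:11190303-11204947, plus strand), cyclin E2, had 0.426 and 0.954 FPKM in 5C-C, 1.39 and 1.01 in 5C, 1.30 and 1.16 in DMSO, 0.925 and 0.376 in 5C-G, 0.817 and 0.885 in 5C-E, 0.894 and 0.769 in 5C-F and 0.444 in 5C-S. All 9 libraries with a compound removed lay below the 4 of 5C and DMSO. The difference of 5C-C from 5C was -0.61 ± 0.46 (SE, adjusted p = 0.33, edgeR), which did not pass, and with the allowance for GC content it was -0.04. *E2f1* (chr2:154401326-154411812, minus strand), a transcription factor of the S phase program, had 6.33 and 5.34 FPKM in 5C-C, 5.84 and 6.15 in 5C, 7.88 and 6.67 in DMSO, 8.55 and 5.02 in 5C-G, 6.51 and 8.21 in 5C-E, 4.47 and 5.95 in 5C-F and 7.41 in 5C-S. No group stood apart, and 5C-C differed from 5C by 0.12 ± 0.23 (SE, adjusted p = 0.73, edgeR), a value that turns negative when libraries are scaled by total counts, when GC content is allowed for and under limma on log2(FPKM + 1).

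The chromatin factors included 2 of 3 members called in 5C-C. *Uhrf1* (chr17:56610275-56630489, plus strand), which couples DNA methylation to replication, had 2.46 and 2.84 FPKM in 5C-C, 1.15 and 0.879 in 5C, 0.873 and 0.896 in DMSO, 1.20 and 0.835 in 5C-G, 1.68 and 2.88 in 5C-E, 1.47 and 1.97 in 5C-F and 1.52 in 5C-S. The log2 fold change in 5C-C was 1.55 ± 0.32 (SE, adjusted p = 0.0013, edgeR), and 5C-E B reached the same level as 5C-C, with 5C-E against 5C at 1.10 ± 0.32 (SE, adjusted p = 0.079, edgeR), which was called with DESeq2, with no filter, with only both groups fitted and without 5C-E A. *Chaf1b* (chr16:93680768-93703003, plus strand), a subunit of the histone chaperone CAF-1, had 6.07 and 9.06 FPKM in 5C-C, 2.40 and 2.42 in 5C, 1.81 and 1.75 in DMSO, 2.03 and 2.75 in 5C-G, 2.51 and 2.36 in 5C-E, 2.83 and 3.26 in 5C-F and 3.18 in 5C-S. Both 5C-C libraries were above all others, at 1.82 ± 0.26 (SE, adjusted p = 9.5e-05, edgeR), while 5C-E was at -0.06. *Chaf1a*, the large subunit, was at 0.90 ± 0.34 (SE, adjusted p = 0.050, edgeR), short of both thresholds.

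In the 5C-S library 2 members lay above 5C by more than 1 on the log2 scale, *Orc1* and *Tk1* (background 8.3% of all genes), and 2 lay below, *Ccne2* and *Fen1* (background 10.6%). *Orc1* rests on 55 counts there and *Fen1* on 0. The median difference of the members from 5C was 0.36.

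GC content of the transcript moved with the values. The members had a median GC content of 49.8%, near the 49.9% of all genes tested, and ranged from 41.7% in *Pola1* to 60.9% in *Pold1*. Over the 41 members, Spearman's correlation between GC content and the log2 fold change in 5C-C was 0.33, as a description of genes that share their libraries. When the fit allowed for GC content and length, this correlation was 0.03, the member median was 1.08, and 20 members were called, all of them higher (background 4.71%). Of these, 18 were among the 22. *Mcm2*, *Mcm7*, *Ccne1* and *Rpa2* lost their call, and *Pole* and *Brca1* gained one. *Rrm1* went from -0.04 to 0.57 and *Mcm4* from -0.80 to -0.07.

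**Figure D4:**
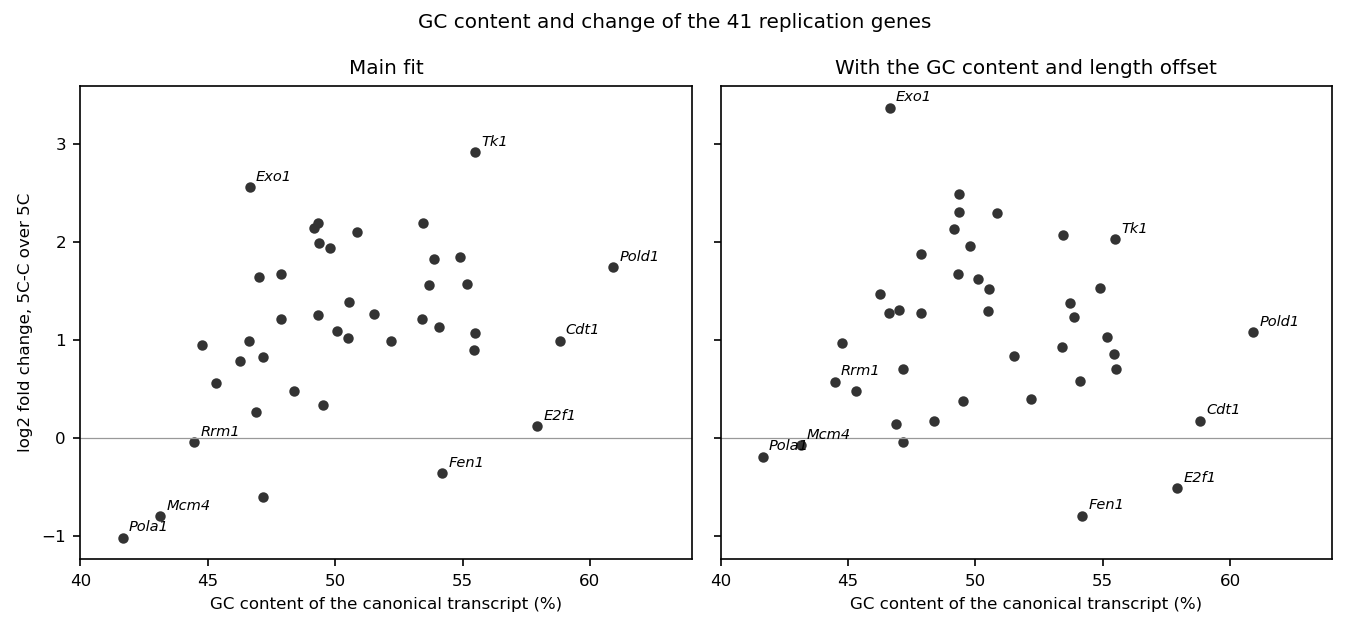
Log2 fold change in 5C-C against 5C (y axis) against GC content of the canonical transcript in percent (x axis) for the 41 members, without (left) and with (right) the GC content and length offset. *Pola1* and *Mcm4*, the members with the lowest GC content, lie below 0 on the left and near 0 on the right.

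The count in 5C-C depended on library B. Without 5C-C B, 12 members were called higher (background 6.30%), and without 5C-C A, 24 were higher and 1 lower (background 12.2%). The calls lost without 5C-C B were *Ccne1*, *Cdc45*, *Cdc6*, *Exo1*, *Gins1*, *Gins3*, *Mcm2*, *Mcm3*, *Pola1*, *Pola2*, *Rfc2* and *Rpa2*. Without 5C A *Cdc6*, *Exo1*, *Gins3*, *Mcm2* and *Pola1* were lost, and without 5C B *Ccne1*, *Cdc45*, *Cdc6*, *Exo1*, *Gins1*, *Gins3* and *Pola1*. On log2(FPKM + 1) values limma called 8 members, all higher (background 4.89%). Exons of genes on the opposite strand overlap 20 members. Of the 21 members with no overlap, 11 were higher and 1 was lower in 5C-C (52.4% higher), in a count added after the data had been seen.

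Hepatocyte markers were abundant in every library, and markers of other cell types were present and differed between the groups. The summed FPKM of 8 hepatocyte markers was 4598 to 5017 in 5C-C and 10886 to 10916 in 5C, with 4 of 8 called in 5C-C, all of them lower. It was lower still in 5C-E, at 3065 to 3570. The sum of 11 macrophage markers was 1025 to 1729 in 5C-C and 518 to 608 in 5C, with 6 called higher and 1 lower. It was higher than in 5C-C in DMSO, at 5034 to 5087, and in 5C-G, at 5191 to 7375. Of 11 stellate cell and fibroblast markers 1 was higher and 3 were lower in 5C-C, with sums of 1391 to 1614 beside 1501 to 1502 in 5C. Of 6 cholangiocyte markers 1, *Krt19*, was higher in 5C-C, with sums of 1852 to 2111 beside 1639 to 1977. *Spp1* made up most of these sums, at 1576 to 1812 FPKM in 5C-C and 1517 to 1842 in 5C. For all these marker calls in 5C-C, the background over all genes was 9.65% higher and 10.5% lower. The sum of the endothelial markers was 9.34 to 15.2 in 5C-C and 12.5 to 13.8 in 5C, and that of the lymphocyte markers 0.566 to 1.01 and 0 to 0.382. Within these lists *Kdr* was at 3.10 to 23.0 FPKM, *Lyve1* at 2.82 to 77.3, *Trac* at 0 to 0.931 and *Cd79a* at 0 to 0.225. The endothelial markers *Pecam1* and *Cdh5* stayed at or below 0.262 FPKM in every library, and the lymphocyte markers *Cd3e* and *Ms4a1* at or below 0.0830. In bulk RNA a change in the number of cells of a type and a change in RNA per cell cannot be told apart, and the part of cell composition in the replication gene values was not tested.

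Replication factors outside the set moved in part with it. Of 46 further factors, such as origin, fork and histone supply proteins, 9 were higher and 3 lower in 5C-C, with a median of 0.16. The largest were the fork protein *Clspn* at 2.20 ± 0.55 (adjusted p = 0.0050), the helicase *Recql4* at 2.12 ± 0.65 (adjusted p = 0.017) and the histone chaperone *Asf1b* at 1.57 ± 0.35 (adjusted p = 0.0021). The topoisomerase *Top1* at -1.29 ± 0.22 (adjusted p = 0.00028), the reductase subunit *Rrm2b* at -1.11 ± 0.26 (adjusted p = 0.0030) and the origin subunit *Orc4* at -1.09 ± 0.22 (adjusted p = 0.0011) were lower (log2 fold changes, edgeR). The background over all genes was 9.65% higher and 10.5% lower. With the allowance for GC content 8 were called higher, *Clspn* and *Asf1b* among them but not *Recql4*, and 1 lower, *Pole4*, while *Top1*, *Rrm2b* and *Orc4* lost their call. In the other 4 comparisons edgeR called 0 of the 46. At an unadjusted p under 0.05 there were 19 in 5C-G, 6 in 5C-E, 9 in 5C-F and 3 in 5C against DMSO, beside 36.8%, 14.5%, 26.0% and 17.2% of all genes, and DESeq2 called 1 in 5C-G and 0 in the others.

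Of 31 regulators of the G1 to S transition, 4 were higher and 5 lower in 5C-C, beside 9.65% and 10.5% of all genes tested. With the allowance for GC content 2 were called higher, *Ccna2* and *Fbxo5*, and 3 lower, *Mycn*, *Cdkn1c* and *Rbl2*. Cyclin A2 (*Ccna2*) at 1.85 ± 0.26 (adjusted p = 9.4e-05), the inhibitor *Cdkn2d* at 1.59 ± 0.29 (adjusted p = 0.00049) and the kinase *Cdk4* at 1.21 ± 0.21 (adjusted p = 0.00036) were the largest on the higher side. *Mycn* at -1.55 ± 0.25 (adjusted p = 0.00022), the pocket protein *Rbl2* at -1.50 ± 0.32 (adjusted p = 0.0016) and cyclin D2 (*Ccnd2*) at -1.14 ± 0.22 (adjusted p = 0.00088) were the largest on the lower side. In 5C-G, 4 were higher, all of them inhibitors of cyclin D kinases, led by *Cdkn2a* at 2.19 ± 0.31 (adjusted p = 8.8e-05) and *Cdkn2d* at 1.45 ± 0.29 (adjusted p = 0.0016) (background 7.47%). With the allowance for GC content 3 were called higher there, *Cdkn2a*, *Ccna2* and *Cdkn2b*, and 1 lower, *Cdkn1c*. In 5C-E the called regulator was *Ccna2*, at 1.13 ± 0.26 (adjusted p = 0.025). In 5C against DMSO, *Cdkn1c* was higher, at 1.30 ± 0.24 (adjusted p = 0.0018), and *Cdkn2a* lower, at -1.12 ± 0.30 (adjusted p = 0.029). In 5C-F edgeR called 0, with 10 at an unadjusted p under 0.05, beside 26.0% of all genes, and 0 by DESeq2. *Cdkn1c* in 5C-E and *Mycn* in 5C-F were called lower with the allowance for GC content.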

How the data were processed

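Per the labels, total RNA of the 13 samples was made into libraries with the NEBNext Ultra RNA kit. The authors deposited raw read counts per gene and FPKM values per gene for these libraries. The submitters' processing notes name GRCm39, Subread, featureCounts and DESeq2. The notes give no roles, and Subread is a package that holds an aligner as well as featureCounts. The annotation release and strand setting are not given in the sources used here. Table columns name a group but not a sample, so libraries were lettered A and B in column order.

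Counts were fitted with edgeR 4.0.16 (TMM, filterByExpr with a minimum count of 10, quasi-likelihood test) over all 13 libraries with 1 mean per group, and p-values were adjusted by Benjamini-Hochberg over the 19884 genes tested. A gene was called at an adjusted p below 0.05 and a log2 fold change beyond 1. SE is the log2 fold change divided by the square root of F. Alternatives used DESeq2 1.42.0, a tool the study's methods name, and limma 3.58.1 on log2(FPKM + 1), with a pseudocount of 1. Scripts were tested on simulated counts. GC content, exon overlap and promoters came from canonical GENCODE transcripts on GRCm39.

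Members and gene lists were chosen with earlier results of these data known. Every library's value is given for the called member with the largest change in each role, a fixed list of well-known members and, added after their values were seen, *Mcm4*, *Prim1* and *Rrm1*. Other members are given by count or range, or by name with a fold change, and genes of other lists by their largest called changes.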

Additional observations from a re-analysis of the deposited data

How the results depend on the processing

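In 5C-C against 5C the 23 calls became 8 with limma on log2(FPKM + 1), an alternative that compresses low values. Leaving out 1 library gave 12 to 25 calls, the lowest without 5C-C B and the highest without 5C-C A. All 22 higher members stayed positive under every alternative run, with 22 called by DESeq2, 19 with total counts as the only scaling and 18 with the GC content and length offset. Scaling by total counts moved the median of all genes by -0.15 in 5C-C, -0.13 in 5C-G and -0.097 in 5C-F, and the split of all calls in 5C-C from 1918 higher and 2093 lower to 1398 and 2737. In 5C-G it went from 1485 and 1122 to 1131 and 1472, and in 5C-F from 534 and 428 to 369 and 586.

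The small counts elsewhere were less stable. With limma they were 0 in 5C against DMSO, 0 in 5C-G and 0 in 5C-F. With no fold threshold they were 8 in 5C-G, beside 25.6% of all genes, and 7 in 5C-F, beside 10.7%. In 5C-E they were 2 with DESeq2, 2 with no filter and 2 when only the groups compared were fitted. With the GC content and length offset they were 0 in 5C against DMSO, 1 in 5C-F (*Mcm5*, with *Gins1*, *Pold1* and *Tk1* lost), 2 in 5C-F against DMSO and 1 in 5C-G against 5C-E. In 5C-G, DESeq2 and the fit with no filter each called 2, without *Mcm5*, and total counts 2 higher and 1 lower, *Pola1*. With total counts the calls were 1 in 5C-F, 0 in 5C-G against DMSO, 0 in 5C-G against 5C-F, 6 in 5C-C against 5C-E and 2 in 5C-E against 5C-F. Leaving out 1 library gave 0 in 5C against DMSO each time, 0 to 6 in 5C-G (6 without 5C-G A, with *Mcm4*, *Pola1* and *Pole* then lower), 0 to 2 in 5C-E and 0 to 2 in 5C-F. Against DMSO it gave 0 to 6 in 5C-G, 1 to 2 in 5C-E and 0 to 3 in 5C-F. The cause was not tested for any of these.

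Signs turned for 3 members that were not called in 5C-C. *E2f1* was -0.039 with total counts, -0.037 with limma and -0.52 with the offset, and *Rrm1* was 0.57 with the offset. Leaving out 1 library, *Orc6* ran from -0.21 to 0.63 and *Rrm1* from -0.093 to 0.034. With 2 libraries per group, and where an arm then had 1, its spread was taken from the other groups. Counts were low for *Fen1*, at 0 to 16 per library, and *Orc1*, at 10 to 55.

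The column names carry a running number that the sources do not tie to a shared animal, culture or day. Differences between libraries 2 and 1 correlated at -0.032 to 0.077 across genes over 15 pairs of groups. With 1 such difference per group, this cannot tell whether libraries with the same number share an animal, culture or day. With that number as a replicate block, an alternative chosen after seeing the data, edgeR called 23 members in 5C-C, 2 in 5C-G, 1 in 5C-E, 3 in 5C-F, 1 in 5C against DMSO and 0 in 5C-G against DMSO. With the replicate block and the offset together it called 19 in 5C-C, 1 in 5C-F and 0 in 5C against DMSO, and *E2f1* was -0.53 and *Rrm1* 0.57.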

Other observations

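Genes of mitosis, the step after replication, were higher in 5C-C. Of 15 such genes, 15 were called higher than in 5C (edgeR, adjusted p below 0.05 and log2 fold change beyond 1), beside 9.65% of all genes tested, with a median log2 fold change of 1.98. The survivin gene *Birc5* was at 2.85 ± 0.36 (SE), the kinase *Aurkb* at 2.69 ± 0.32 and *Cdc20*, an activator of the anaphase-promoting complex, at 2.57 ± 0.28. In 5C-G 8 of the 15 were higher, beside 7.47% of all genes, and in 5C-E 5, beside 0.654%. DESeq2 called 9 in 5C-E, as did the fit with the GC content and length offset. Of the 41 replication genes, 3 were called in 5C-G and 1 in 5C-E. *Cdc20* was at 2.01 ± 0.27 in 5C-G and 1.30 ± 0.27 in 5C-E. In 5C-F edgeR called 0 of the 15, with 3 at an unadjusted p under 0.05, beside 26.0% of all genes, and 0 by DESeq2, and 3 replication genes were called there. With the GC content and length offset 1 mitosis gene, *Mki67*, and 1 replication gene, *Mcm5*, were called in 5C-F. Whether the lists differ from each other was not tested.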
